A study of Mus musculus with 12 samples.

Results

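Genes for orphan, purinergic and adhesion G protein-coupled receptors (GPCRs) were followed across 5 populations of the classical dendritic cell (cDC) lineage of the mouse. They are the genes whose symbol starts with Gpr and a digit, with P2ry and a digit, or with Adgr, and that have a probe set listing no other symbol. There were 99 of them (66 Gpr, 9 P2ry and 24 Adgr genes) among the 22180 genes measured. Of several probe sets for a gene, the brightest by its 12-array mean stands for it.

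GPCRs are receptors with membrane-spanning helices that pass on a signal through G proteins. Most P2Y receptors respond to extracellular nucleotides or nucleotide sugars, and a related group responds to lysophosphatidylserine, a lipid released at cell membranes. Adhesion GPCRs carry long extracellular parts that contact other cells or matrix, and the remaining Gpr genes encode receptors for protons, oxysterols or fatty acids, receptors whose ligand is unsettled, and a few intracellular membrane proteins. In dendritic cells such receptors are known for steering migration and positioning and for sensing damaged tissue.

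All mice were C57Bl/6 animals at steady state that were Zbtb46GFP/+, meaning that GFP replaced 1 copy of a gene for a classical dendritic cell transcription factor, so every group shared that allele. CDP cells, the common dendritic cell progenitor (n = 3 arrays), were sorted from bone marrow for CD135, CD115 and intermediate CD117, without CD11c, MHC class II or lineage markers. Pre-CD8 cells (n = 2), also lineage-negative marrow cells with CD135 and intermediate CD117, had CD11c and intermediate MHC class II and lacked Siglec H. Pre-CD4 cells (n = 2) were lineage-negative marrow cells with CD135, CD115 and CD11c, low in CD117 and negative for MHC class II. CD24 DCs (n = 3) were gated for CD11c and CD24 without CD172a, and are labelled MHC class II negative. CD172a DCs (n = 2) were gated for CD11c, MHC class II and CD172a. The labels name spleen as the other tissue harvested, from which the CD24 and CD172a DCs are taken to come, so that maturation and tissue cannot be told apart in these samples. Separate mice and pooled mice are not told apart by the labels, so p-values measure only the spread between arrays, which may be technical.

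As list means, the lineage markers followed the labels. The mean log2 level of 7 cDC1 markers was 10.1 to 10.5 on the CD24 DC and 8.93 to 9.61 on the pre-CD8 arrays, against 5.66 to 7.59 on all others. The mean of 6 cDC2 markers was 8.53 to 8.99 on the CD172a DC and 7.51 to 7.81 on the pre-CD4 arrays, against 6.03 to 6.79 elsewhere. Not every single marker did so. Irf8 of the cDC1 list had means of 11.99 in pre-CD4 cells and 11.49 in CDPs, beside 11.90 in CD24 DCs. Of the cDC2 list, Cd209a had means of 7.08 to 7.28 in all populations, and S100a4 was at 10.1 in pre-CD8 cells. Against its label, the CD24 DC group had H2-Ab1, an MHC class II gene, at 12.19 ± 0.15 (SD, n = 3), and the pre-CD4 group had it at 9.18 ± 1.44 (SD, n = 2). Over the 99 GPCR genes, Pearson's r was 0.94 to 0.974 for the 9 pairs of arrays within a group and 0.424 to 0.898 for the 57 pairs between groups, a description only, since arrays share probes and processing.

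Values are log2 expression. A difference is given on the log2 scale with its standard error in limma, and genes below an adjusted p of 0.05 (Benjamini-Hochberg over all 22180 genes) are named as called. In sorted bulk samples a lower value can mean less RNA per cell or fewer cells that express the gene, and these cannot be told apart. A probe set's brightness also depends on its probes, so levels are compared between populations and not between genes. Below the median gene, detection is not shown, and no fold is given for a difference whose lower side lies there.

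Across the 5 populations, 42 of the 99 GPCR genes varied (moderated F-test, 42.4%), against 24% of all genes. Of the 42 genes, 17 had their highest mean in CD172a DCs and 14 in CD24 DCs, against 5 in pre-CD4 cells, 1 in pre-CD8 cells and 5 in CDPs, and for 26 (61.9%) the lowest mean was in CDPs. Over the 5314 genes of the array that varied, 18.3% were highest in CD172a DCs, 17.5% in CD24 DCs and 38.3% in CDPs, and 22.7% were lowest in CDPs. The medians of whole arrays moved in the same direction by less. They were 5.12 and 5.23 for CD172a DC and 4.99 to 5.24 for CD24 DC arrays, against 4.89 to 5.0 for CDP arrays. After quantile normalization of the arrays 41 of the 99 GPCR genes varied, 39 of them among the 42. The counts by highest and lowest population were not rerun in that setting, and the part of the medians in them was not tested. The range between the highest and lowest population mean of these 42 genes had a median of 2.46 and reached 6.75, in Gpr141b. The other 57 genes ranged over at most 1.21, and 48 of them lay below the median gene of the array (5.22), a range in which no detection of the transcript is shown. The 6 members whose probe sets had the highest 12-array means, an order that also depends on the probes, were Gpr65 (9.69), Gpr171 (9.49), Gpr183 (8.74), Gpr18 (8.16), Gpr108 (7.89) and Gpr137b-ps (7.31). All of them but Gpr108 were called by the F-test. Gpr137b-ps is by its symbol a pseudogene of Gpr137b, and whether its probes separate it from Gpr137b was not tested.

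**Figure D1:**
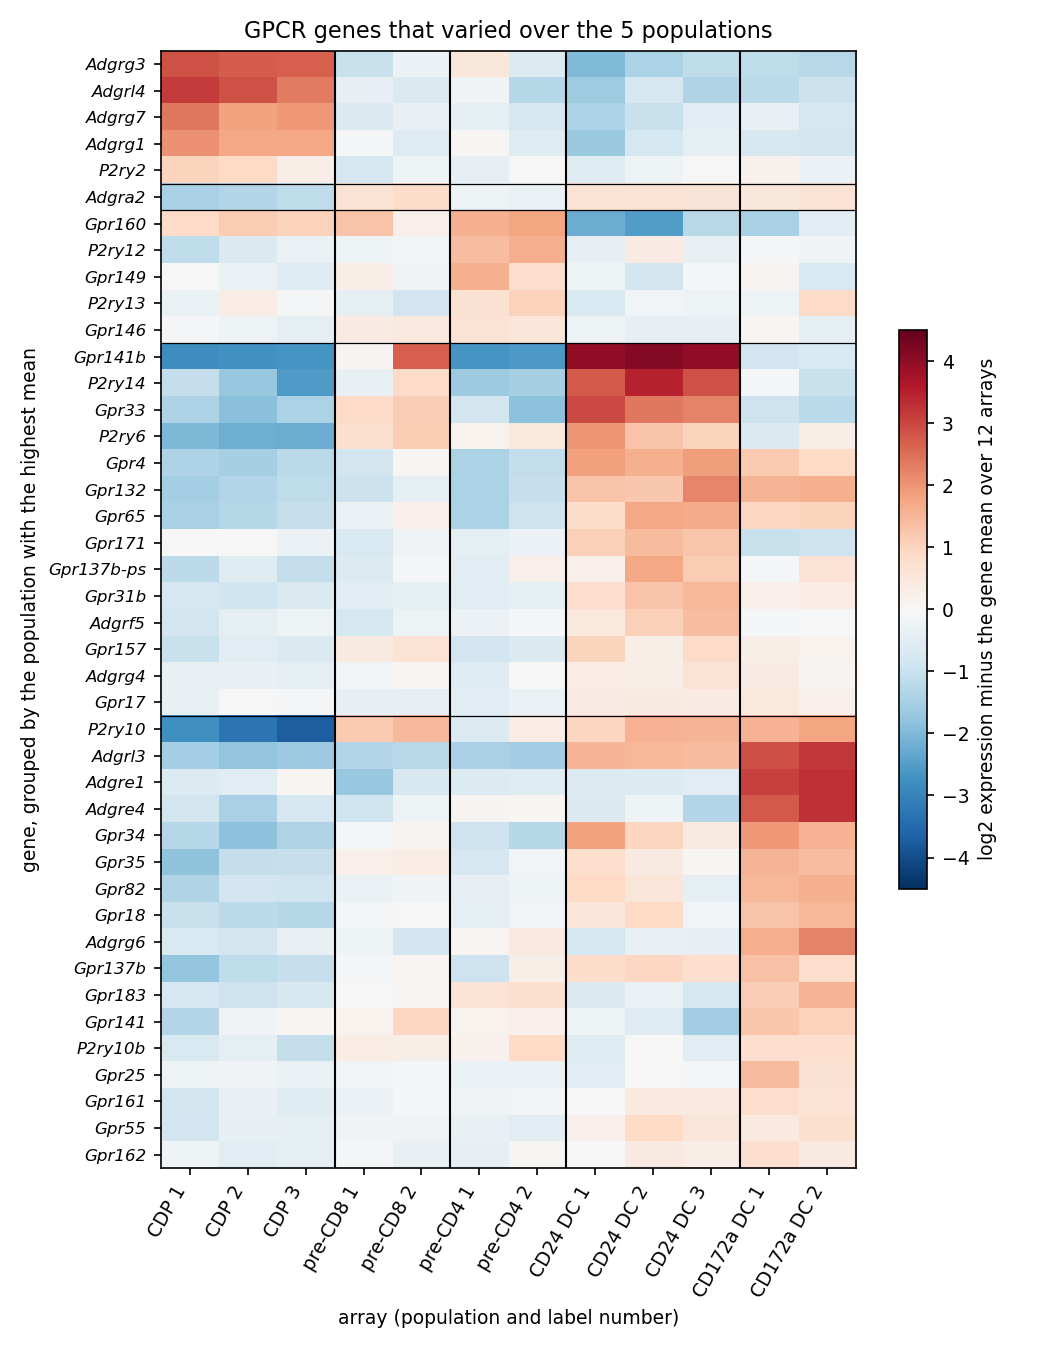
Log2 expression of the 42 GPCR genes that varied over the 5 populations, each minus its own mean over the 12 arrays (colour scale in log2 units), with 1 column per array and black lines between populations. Rows are grouped by the population with the highest mean, and the 5 genes of the top block are high on the 3 CDP arrays while 31 genes in the 2 lower blocks are highest in CD24 DCs (14) or CD172a DCs (17).

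Of the 7 P2Y nucleotide receptor genes, 5 varied, and they peaked in different populations. P2ry6, the UDP receptor, stood at 5.13, 4.97 and 4.93 on the CDP arrays, 7.88 and 8.31 on pre-CD8, 7.32 and 7.62 on pre-CD4, 9.15, 8.45 and 8.16 on CD24 DC, and 6.51 and 7.47 on CD172a DC arrays. Every other array was above all CDP arrays. P2ry14, the receptor for UDP-glucose and related sugars, was at 5.60, 4.98 and 4.12 on CDP, 6.33 and 7.52 on pre-CD8, 5.03 and 5.16 on pre-CD4, 9.45, 10.13 and 9.52 on CD24 DC, and 6.57 and 5.66 on CD172a DC arrays. The 3 CD24 DC arrays lay above the 9 others, and pre-CD8 and CD172a DC arrays overlapped. P2ry12, an ADP receptor best known from platelets and microglia, was at 4.66, 5.16 and 5.52 on CDP, 5.58 and 5.70 on pre-CD8, 7.19 and 7.43 on pre-CD4, 5.44, 6.18 and 5.49 on CD24 DC, and 5.73 and 5.64 on CD172a DC arrays. Both pre-CD4 arrays were above all others. Its neighbour P2ry13, another ADP receptor, had its highest mean in the same population (6.39), but there the second CD172a DC array (6.41) lay between the pre-CD4 arrays (6.21 and 6.57). P2ry2, a receptor for ATP and UTP, had its highest mean in CDPs (5.64), and P2ry1 and P2ry4 were not called for variation, with all arrays of P2ry1 between 4.16 and 5.53.

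**Figure D2:**
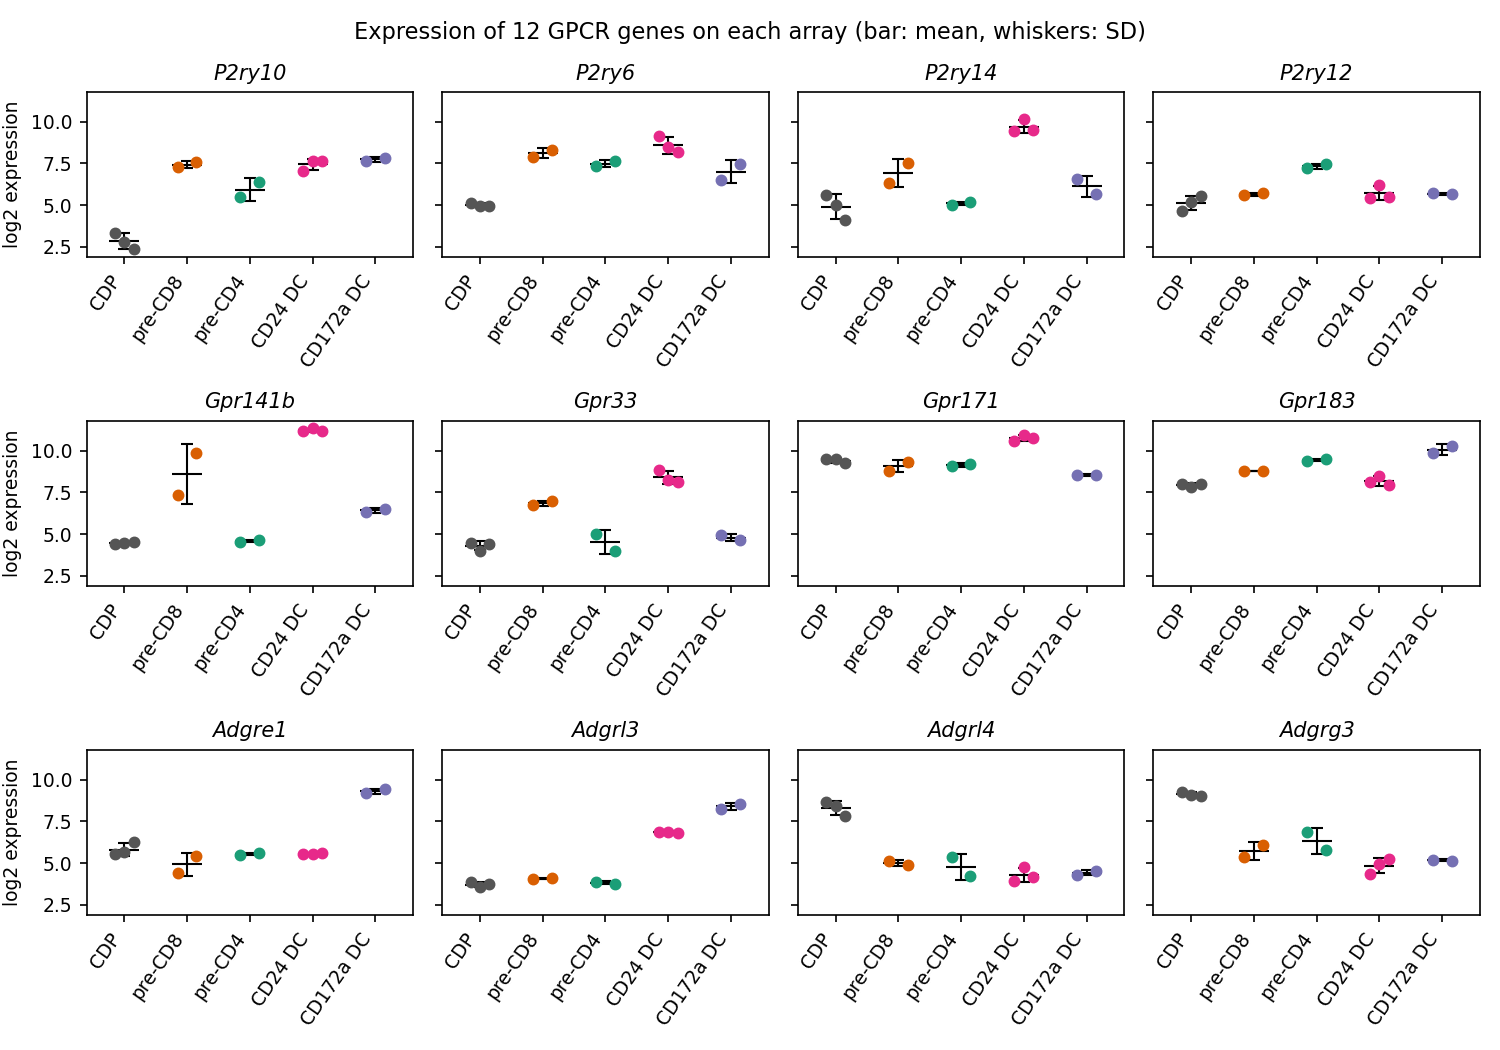
Log2 expression of 12 GPCR genes on each array (points), by population, with the population mean (bar) and SD (whiskers, n = 2 or 3). P2ry14, Gpr141b, Gpr33 and Gpr171 are highest on the CD24 DC arrays, Adgre1, Adgrl3 and Gpr183 on the CD172a DC arrays, P2ry12 on the pre-CD4 arrays, and Adgrl4 and Adgrg3 on the CDP arrays.

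Of the 4 lysophosphatidylserine receptor genes, 3 varied. P2ry10 was at 3.33, 2.80 and 2.36 on CDP, 7.27 and 7.55 on pre-CD8, 5.45 and 6.41 on pre-CD4, 7.05, 7.64 and 7.62 on CD24 DC, and 7.63 and 7.84 on CD172a DC arrays. The CDP arrays stood apart below all 9 others, and the pre-CD4 arrays lay between them and the rest. P2ry10b, a close copy of P2ry10 beside it on the X chromosome, varied over a smaller range, with means of 3.74 in CDPs, 4.77 in pre-CD8, 5.02 in pre-CD4, 4.11 in CD24 DCs and 5.21 in CD172a DCs. Probes may not separate the copies, so values of the pair are uncertain. Gpr34 was at 4.93, 4.35 and 4.85 on CDP, 6.11 and 6.33 on pre-CD8, 5.28 and 4.92 on pre-CD4, 8.02, 7.17 and 6.63 on CD24 DC, and 8.18 and 7.77 on CD172a DC arrays. The mature arrays were thus all above the progenitor arrays, with the 2 mature populations overlapping. Gpr174, the third receptor known for this lipid, stood between 2.80 and 3.49 on every array.

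The region before the start is shown for P2ry10 and its close copy P2ry10b, and for 3 genes that were highest in CD24 DCs (Gpr33, Gpr141b and P2ry14), because each holds a letter match to a factor known in dendritic cells. The sequences are from RefSeq (GRCm38.p6), and a promoter entry was at hand for 76 of the 99 genes. They give the 250 bases before the annotated start, with the match in capitals. P2ry10 (start 2 of 2, chrX:107089083-107089332, plus strand) and P2ry10b (start 3 of 3, chrX:107149365-107149614, plus strand) both hold ACTTCCTC, the reverse strand of GAGGAAGT, a motif of the ETS factor PU.1. In P2ry10 it ends 24 bases before the start and in P2ry10b 38 bases before it. Gpr33 (chr12:52028064-52028313, minus strand) holds GGAA, any 2 bases and GAAA, a composite motif of ETS and interferon regulatory factors, and Gpr141b (chr13:19732952-19733201, minus strand) holds GAAA, any 2 bases and GAAA, the interferon-stimulated response element. P2ry14 (start 1 of 4, chr3:59153493-59153742, minus strand) holds TGANTCA, the motif of AP-1 factors, a family that includes BATF3.
P2ry10: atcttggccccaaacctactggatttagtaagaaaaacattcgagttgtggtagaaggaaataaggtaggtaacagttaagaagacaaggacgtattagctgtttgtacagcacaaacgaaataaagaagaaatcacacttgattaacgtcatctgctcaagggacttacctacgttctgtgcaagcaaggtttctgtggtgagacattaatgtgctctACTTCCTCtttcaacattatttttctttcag
P2ry10b: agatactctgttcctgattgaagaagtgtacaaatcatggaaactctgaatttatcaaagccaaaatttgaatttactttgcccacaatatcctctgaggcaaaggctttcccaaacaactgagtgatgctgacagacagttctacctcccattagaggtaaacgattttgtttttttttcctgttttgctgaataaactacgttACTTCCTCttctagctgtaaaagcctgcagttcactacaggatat
Gpr33: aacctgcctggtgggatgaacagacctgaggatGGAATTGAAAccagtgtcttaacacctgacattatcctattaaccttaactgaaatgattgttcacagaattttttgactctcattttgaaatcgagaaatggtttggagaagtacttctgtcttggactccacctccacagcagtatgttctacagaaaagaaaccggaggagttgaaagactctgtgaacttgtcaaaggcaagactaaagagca
Gpr141b: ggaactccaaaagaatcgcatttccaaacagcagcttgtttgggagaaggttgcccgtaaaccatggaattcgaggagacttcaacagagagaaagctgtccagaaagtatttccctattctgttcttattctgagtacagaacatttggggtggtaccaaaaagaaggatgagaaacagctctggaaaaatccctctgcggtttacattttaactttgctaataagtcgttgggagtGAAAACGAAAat
P2ry14: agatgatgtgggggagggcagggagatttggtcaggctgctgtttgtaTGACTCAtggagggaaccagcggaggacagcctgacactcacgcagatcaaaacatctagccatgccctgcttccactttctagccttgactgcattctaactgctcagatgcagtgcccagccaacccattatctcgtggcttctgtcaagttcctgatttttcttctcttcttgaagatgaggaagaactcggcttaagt

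Both strands were searched, and such letters are common. GAGGAAGT stood in 5 of the 101 windows of the GPCR genes (4.95%), against 2.44% of all 32851 windows. The composite motif stood in 1 (0.99%), against 2.3% of all, and the interferon-stimulated response element in 6 (5.94%), against 2.98% of all. The last 2 motifs overlap in letters, and 61 of all windows hold both. TGANTCA stood in 9 windows of the GPCR genes (8.91%), against 6.75% of all. The windows shown were picked for a match. The interferon-stimulated response element also stood before Adgrg7, Adgrl3, Gpr15, Gpr18 and Gpr19. TGANTCA also stood before Adgrf4, Adgrg1, Adgrg4, Gpr15, Gpr35, P2ry10b and P2ry10 (start 1, not shown). Of these genes that varied, Adgrl3, Gpr18, Gpr35, P2ry10 and P2ry10b were highest in CD172a DCs, Adgrg4 in CD24 DCs, and Adgrg1 and Adgrg7 in CDPs. Each match is a description of the letters and not a shown binding site.

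All 3 measured genes of the proton-sensing and G2A receptor list varied, and all were highest in the mature cells. Gpr132, also called G2A, was at 5.67, 5.87 and 6.05 on CDP, 6.22 and 6.79 on pre-CD8, 5.77 and 6.18 on pre-CD4, 8.49, 8.41 and 9.41 on CD24 DC, and 8.71 and 8.79 on CD172a DC arrays. The 5 mature arrays lay above the 7 marrow arrays, and the 2 mature populations overlapped. Gpr4, which senses extracellular acid, showed the same split, with 5.21, 5.11 and 5.41 on CDP, 5.79 and 6.65 on pre-CD8, 5.20 and 5.52 on pre-CD4, 8.45, 8.21 and 8.48 on CD24 DC, and 7.79 and 7.52 on CD172a DC arrays. Its pre-CD8 arrays lay above the CDP and pre-CD4 arrays, the second by more. The rise against CDPs, 0.98 ± 0.25, was called in the limma fit of all arrays. It was not called with quantile normalization or with only the groups compared (limma, adjusted p 0.0712 and 0.0884). Gpr65, an acid sensor of immune cells, was at 8.23, 8.42 and 8.65 on CDP, 9.43 and 9.91 on pre-CD8, 8.27 and 8.77 on pre-CD4, 10.50, 11.43 and 11.35 on CD24 DC, and 10.62 and 10.68 on CD172a DC arrays. Pre-CD8 arrays lay between the pre-CD4 and the mature arrays.

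Among 7 genes for receptors of oxysterols, fatty acids and other metabolites, 5 varied. Gpr183, the oxysterol receptor also called EBI2, which is known to position dendritic cells in the spleen, was at 7.98, 7.82 and 8.03 on CDP, 8.77 and 8.80 on pre-CD8, 9.37 and 9.47 on pre-CD4, 8.09, 8.48 and 7.94 on CD24 DC, and 9.83 and 10.28 on CD172a DC arrays. Every pre-CD4 and CD172a DC array lay above every array of the other populations. Gpr18, next to Gpr183 in the genome and reported as a receptor of lipid mediators, had means of 7.01 in CDPs, 8.12 in pre-CD8, 7.88 in pre-CD4, 8.60 in CD24 DCs and 9.55 in CD172a DCs. Gpr35, reported to respond to tryptophan metabolites, ran in the order CDP (5.64), pre-CD4 (6.50), pre-CD8 (7.21), CD24 DC (7.37) and CD172a DC (8.40), the pre-CD8 and CD24 DC arrays overlapping. Gpr31b was instead highest in CD24 DCs, with 6.84, 7.37 and 7.58 there, against 6.32 and 6.42 in CD172a DCs and at most 5.65 in the marrow. Gpr55, a receptor for lysophosphatidylinositol, stood at 5.26 to 5.92 in mature cells and 4.17 to 4.89 in the marrow. Gpr84, a receptor for medium-chain fatty acids, was not called for variation, and neither was Gpr119.

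Several orphan receptor genes were among the most lineage-biased. Gpr141b was at 4.39, 4.47 and 4.55 on CDP, 7.31 and 9.88 on pre-CD8, 4.53 and 4.62 on pre-CD4, 11.17, 11.32 and 11.16 on CD24 DC, and 6.31 and 6.51 on CD172a DC arrays. The pre-CD8 arrays differed widely from each other, yet both were above all CDP, pre-CD4 and CD172a DC arrays and below all CD24 DC arrays. Gpr141, its neighbour in the genome, went the other way between the mature cells, with 6.95, 6.59 and 5.59 on CD24 DC and 8.40 and 8.20 on CD172a DC arrays. Whether probes separate the 2 genes was not tested. Gpr33, an orphan related to chemoattractant receptors, was at 4.48, 3.99 and 4.42 on CDP, 6.72 and 6.95 on pre-CD8, 5.02 and 4.0 on pre-CD4, 8.82, 8.25 and 8.09 on CD24 DC, and 4.92 and 4.65 on CD172a DC arrays. CD24 DC arrays were highest, pre-CD8 arrays next, and the arrays of the other 3 populations overlapped.

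Gpr171, related in sequence to P2Y receptors, was bright in all populations and changed at the mature stage, with 9.47, 9.51 and 9.23 on CDP, 8.80 and 9.33 on pre-CD8, 9.07 and 9.21 on pre-CD4, 10.55, 10.92 and 10.74 on CD24 DC, and 8.51 and 8.56 on CD172a DC arrays. CD24 DC arrays were all above, and CD172a DC arrays all below, every marrow array. Gpr160, an orphan, ran the other way over maturation, at 7.15, 7.42 and 7.30 on CDP, 7.57 and 6.51 on pre-CD8, 7.89 and 8.04 on pre-CD4, 4.05, 3.78 and 5.02 on CD24 DC, and 4.83 and 5.79 on CD172a DC arrays. All mature arrays lay below all marrow arrays. Gpr34 and Gpr82, neighbours on the X chromosome, both had their highest mean in CD172a DCs (7.98 and 6.90). In the run of neighbours Gpr171, P2ry14, P2ry13 and P2ry12, by contrast, the first pair was highest in CD24 DCs and the second in pre-CD4 cells. In the RefSeq gene order, 24 measured members lay in 11 such runs of adjacent GPCR genes.

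Of 24 adhesion GPCR genes 11 varied, of which 4 had their highest mean in CDPs, 6 in a mature population and 1, Adgra2, in pre-CD8 cells. Adgrg3, known from granulocytes, was at 9.24, 9.09 and 9.03 on CDP, 5.36 and 6.09 on pre-CD8, 6.88 and 5.75 on pre-CD4, 4.36, 4.94 and 5.23 on CD24 DC, and 5.21 and 5.12 on CD172a DC arrays. Adgrl4, known from endothelium, was at 8.66, 8.39 and 7.83 on CDP arrays and at most 5.34 on any other array. Adgrg1, known from blood stem cells and natural killer cells, had 7.88, 7.56 and 7.57 on CDP arrays and at most 5.87 elsewhere, and Adgrg7 had 7.18, 6.61 and 6.75 there and at most 4.47 elsewhere. In all 4 genes the CDP arrays were apart from every other array. On the same CDP arrays a progenitor list of 5 genes (Cd34, Kit, Sox4, Mpo, Myc) averaged 9.82 to 10.1, against at most 8.12 elsewhere, and 9 neutrophil markers averaged 7.88 to 9.39, against 7.10 to 9.41 in pre-CD8, 6.47 to 6.73 in pre-CD4 and at most 6.61 in mature cells. Mpo is in both lists. Of the progenitor list, Cd34, Sox4, Mpo and Myc had their highest mean in CDPs. Kit did not, with means of 8.24 in CDPs, 9.04 in pre-CD8, 5.95 in pre-CD4, 9.71 in CD24 DCs and 9.70 in CD172a DCs. The part of either list in the values of Adgrg3 was not tested.

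Adgre1, which encodes the macrophage antigen F4/80, was at 5.52, 5.65 and 6.23 on CDP, 4.43 and 5.40 on pre-CD8, 5.50 and 5.60 on pre-CD4, 5.52, 5.52 and 5.63 on CD24 DC, and 9.20 and 9.42 on CD172a DC arrays. Adgre4, of the same EGF-TM7 family of myeloid cells, was at 3.68, 3.04 and 3.72 on CDP, 3.61 and 4.28 on pre-CD8, 4.62 and 4.57 on pre-CD4, 3.83, 4.31 and 3.17 on CD24 DC, and 7.26 and 7.78 on CD172a DC arrays. Both genes were apart in CD172a DCs, with Adgre1 at most 6.23 and Adgre4 at most 4.62 on the 10 other arrays. Adgrl3, a latrophilin known from synapses, was at 3.84, 3.58 and 3.72 on CDP, 4.05 and 4.09 on pre-CD8, 3.89 and 3.77 on pre-CD4, 6.89, 6.87 and 6.80 on CD24 DC, and 8.24 and 8.54 on CD172a DC arrays, so the 2 mature populations were apart from the marrow and from each other. Adgrg6, known from myelinating Schwann cells, had 6.81 and 7.40 on CD172a DC arrays and 4.31 to 5.62 elsewhere. Adgra2, a Wnt coreceptor of brain endothelium, was at 5.59 to 5.88 in CDPs, 6.73 and 6.79 in pre-CD4 cells and 7.55 to 7.86 in the other 3 populations.

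Pre-CD8 cells were compared with CDPs to ask which receptors appear with commitment toward the CD24 lineage. Of the 99 GPCR genes, 20 were called, 15 higher and 5 lower in pre-CD8 cells (20.2%), against 4.77% of all genes (2.29% higher and 2.47% lower). P2ry10 rose by 4.58 ± 0.32 (adjusted p = 3.16e-06), with CDP values far below the median gene. The other large rises were those of Gpr141b (4.13 ± 0.49), P2ry6 (3.09 ± 0.32), Gpr33 (2.54 ± 0.30), Adgra2 (2.05 ± 0.18), P2ry14 (2.03 ± 0.43), Gpr35 (1.56 ± 0.28) and Gpr34 (1.51 ± 0.34). The 5 lower genes were Adgrg3 (-3.40 ± 0.33), Adgrl4 (-3.30 ± 0.34), Adgrg7 (-2.55 ± 0.28), Adgrg1 (-2.17 ± 0.32) and P2ry2 (-1.21 ± 0.28), 4 of them adhesion GPCRs. Gpr65 (1.23 ± 0.29), Gpr18 (1.10 ± 0.26) and Gpr183 (0.84 ± 0.21) also rose, and 14 of the 27 genes of a panel followed in each comparison were not called, from -0.89 ± 0.28 for Adgre1 to 1.01 ± 0.43 for Gpr141. On the pre-CD8 arrays 7 markers of basophils, mast cells and eosinophils averaged 5.73 to 6.64, against 5.01 to 5.31 in CDPs, with 3 of the 7 called higher (Prg2, 2.46, Cpa3, 1.77, and Fcer1a, 1.20) and none lower. Their part in the GPCR differences was not tested.

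Of these 20 calls, 9 held under each alternative in which the gene was tested, those of P2ry10, Gpr141b, P2ry6, Gpr33, Adgra2 and the 4 adhesion GPCRs that fell, of which Adgrg7 was not tested with dim genes left out. Leaving out CDP array 2 gave 13 calls, and leaving out pre-CD8 array 1 also gave 13. Leaving out pre-CD8 array 2 gave 11, with 5 higher and 6 lower, and then P2ry14, Gpr34, Gpr35, Gpr65, Gpr18, Gpr183, Gpr4, Gpr137b, Gpr157 and P2ry10b were not called (adjusted p 0.058 to 0.422). P2ry14 also lost its call without CDP array 3, and Gpr34, Gpr65, Gpr18, Gpr183 and P2ry2 theirs without CDP array 2 or pre-CD8 array 1 (adjusted p up to 0.246).

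Pre-CD4 cells were compared with the same CDP arrays, so the 2 comparisons share their reference and are given side by side. Here 12 GPCR genes were called, 8 higher and 4 lower (12.1%), against 4.54% of all genes (2.32% higher and 2.23% lower). P2ry10 rose by 3.10 ± 0.32 (adjusted p = 0.000131). The other higher genes were P2ry6 (2.46 ± 0.32), P2ry12 (2.20 ± 0.27), Gpr149 (1.48 ± 0.33), Gpr183 (1.48 ± 0.21), P2ry10b (1.29 ± 0.26), Adgra2 (1.03 ± 0.18) and Gpr146 (0.84 ± 0.20). The 4 lower genes were Adgrl4 (-3.51 ± 0.34), Adgrg3 (-2.80 ± 0.33), Adgrg7 (-2.64 ± 0.28) and Adgrg1 (-2.10 ± 0.32). Gpr141b (0.10 ± 0.49), Gpr33 (0.21 ± 0.30) and P2ry14 (0.20 ± 0.43), which rose in pre-CD8 cells, were not called, and 19 of 27 panel genes were not, from -0.93 ± 0.28 for P2ry2 to 1.12 ± 0.33 for Adgre4. Beside P2ry12, a list of 7 plasmacytoid dendritic cell markers averaged 7.04 to 7.23 on the pre-CD4 arrays, against 6.17 to 6.55 in CDPs and 5.85 to 6.15 in the other 3 populations. With 2 of the 7 called higher against CDP (Siglech, 2.12, and Tcf4, 1.10) and none lower, its part in P2ry12 was not tested.

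Of the 12 calls, 7 held under each alternative in which the gene was tested, those of P2ry10, P2ry6, P2ry12, Gpr183, Adgrl4, Adgrg3 and Adgrg7, the last not tested with dim genes left out. Without pre-CD4 array 2 the count was 8, with Adgra2, Adgrg1, Gpr146 and P2ry10b not called (adjusted p 0.0532 to 0.214), and Gpr149 lost its call without pre-CD4 array 1, CDP array 2 or CDP array 3 (adjusted p up to 0.272).

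**Figure D3:**
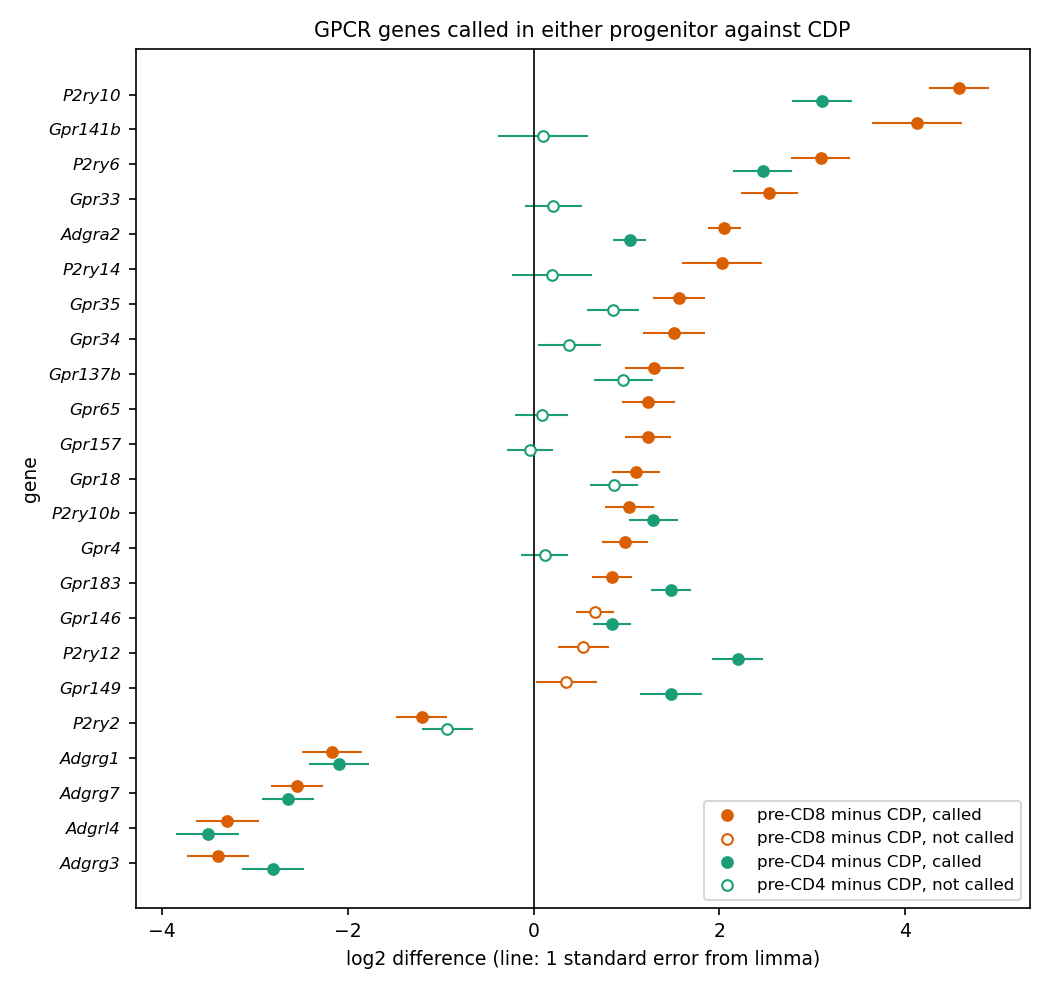
Log2 differences of the GPCR genes called in pre-CD8 or pre-CD4 cells against CDPs, with lines of 1 standard error from limma, filled where the adjusted p is under 0.05 and open where it is not. P2ry10 and P2ry6 are called higher in both progenitors, Gpr141b, Gpr33 and P2ry14 in pre-CD8 cells, P2ry12 in pre-CD4 cells, and Adgrl4, Adgrg3, Adgrg7 and Adgrg1 are called lower in both.

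Pre-CD8 and pre-CD4 cells were set against each other directly. They differed in 4 GPCR genes, 3 higher and 1 lower in pre-CD8 cells (4.04%), against 0.703% of all genes (0.383% higher and 0.32% lower). Gpr141b was 4.03 ± 0.53 higher (adjusted p = 0.00227), Gpr33 2.32 ± 0.33 higher (adjusted p = 0.0038) and Adgra2 1.02 ± 0.20 higher (adjusted p = 0.0301). P2ry12 was the lower gene (-1.67 ± 0.30, adjusted p = 0.0191). P2ry14 (1.83 ± 0.47) and P2ry13 (-1.50 ± 0.35) had large differences without a call (adjusted p = 0.143 and 0.0862), and 25 of 27 panel genes were not called. None of the 4 calls held under every alternative run, and a fit of the 4 arrays alone called 0 of the 99 GPCR genes with limma. Without pre-CD8 array 1, pre-CD4 array 1 or pre-CD4 array 2 the count was 2, with Adgra2 and P2ry12 not called (adjusted p 0.0917 to 0.226), and without pre-CD8 array 2 it was 1, Gpr141b.

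In CD24 DCs against CD172a DCs, 16 GPCR genes were called, 7 higher and 9 lower in CD24 DCs (16.2%), against 5.59% of all genes (3.21% higher and 2.37% lower). The CD24 side was led by Gpr141b, at 4.81 ± 0.49 (adjusted p = 6.17e-05), a fold of 28, with Gpr33 (3.60 ± 0.30), P2ry14 (3.58 ± 0.43), Gpr171 (2.20 ± 0.21), P2ry6 (1.60 ± 0.32), Adgrf5 (1.03 ± 0.28) and Gpr31b (0.90 ± 0.22). On the CD172a side, Adgre4 (-3.76 ± 0.33) and Adgre1 (-3.75 ± 0.28, adjusted p = 5.33e-06) differed most, Adgre4 being below the median gene in CD24 DCs. Adgrg6 (-2.43 ± 0.27), Gpr141 (-1.93 ± 0.43), Gpr183 (-1.88 ± 0.21), Adgrl3 (-1.54 ± 0.18), Gpr25 (-1.25 ± 0.23), Gpr82 (-1.22 ± 0.31) and P2ry10b (-1.10 ± 0.26) followed. Of 24 adhesion GPCR genes 4 were lower and 1 higher, and of the 3 proton-sensing and G2A genes none was called, Gpr132 differing by 0.02 ± 0.29. Gpr18 (-0.95 ± 0.26) and Gpr35 (-1.04 ± 0.28) missed the threshold closely, each at an adjusted p of 0.0502, and 18 of 27 panel genes were not called. Beside Adgre1 and Adgre4, 9 monocyte and macrophage markers averaged 6.40 to 6.66 on CD24 DC and 6.67 to 6.83 on CD172a DC arrays, with Ly6c2 higher (2.27), Csf1r lower (-2.43) and 7 not called. The same list was at 7.50 to 7.69 on the pre-CD4 arrays, where Adgre1 and Adgre4 were low, and its part in the 2 genes was not tested.

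Under each alternative in which the gene was tested 9 of the 16 calls held, those of Gpr141b, Gpr33, P2ry14, Gpr171, Adgre4, Adgre1, Adgrg6, Gpr183 and Adgrl3, Adgre4 not being tested with dim genes left out. Without CD172a DC array 1 the count was 9, with P2ry6, Gpr141, Gpr25, Gpr31b, Gpr82, Adgrf5 and P2ry10b not called (adjusted p 0.112 to 0.279), and without CD172a DC array 2 Gpr141, Gpr31b, Gpr82, Adgrf5 and P2ry10b were not (adjusted p 0.0777 to 0.193).

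**Figure D4:**
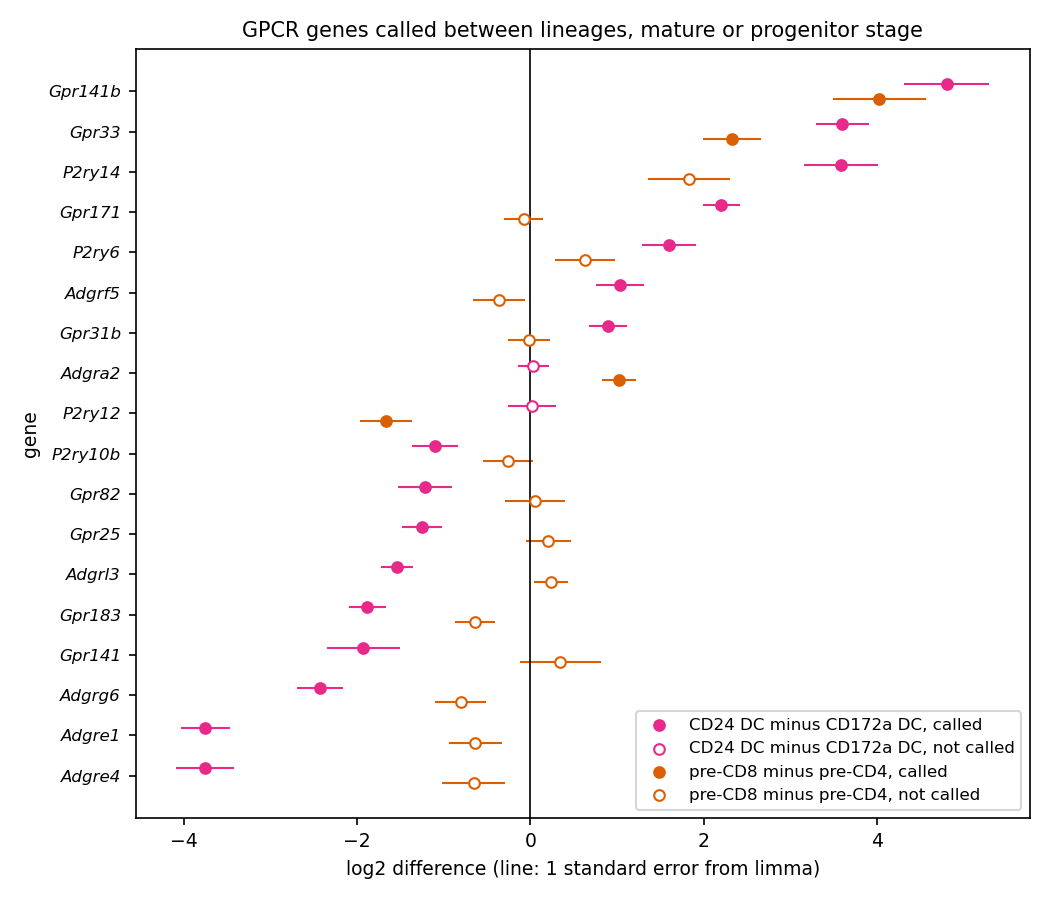
Log2 differences of the GPCR genes called between lineages, CD24 DC minus CD172a DC and pre-CD8 minus pre-CD4, with lines of 1 standard error from limma, filled where called. Gpr141b and Gpr33 are called higher on the CD24 side at both stages, and Adgre1, Adgre4 and Gpr171 have progenitor differences of -0.64, -0.66 and -0.08 and mature differences of -3.75, -3.76 and 2.20.

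CD24 DCs were compared with pre-CD8 cells, and CD172a DCs with pre-CD4 cells, to follow each lineage to the mature cell. In CD24 DCs 13 GPCR genes were called, 11 higher and 2 lower (13.1%), against 6.31% of all genes (2.65% higher and 3.66% lower). Adgrl3 rose by 2.78 ± 0.18 (adjusted p = 2.97e-06), P2ry14 by 2.77 ± 0.43, Gpr141b by 2.62 ± 0.49, Gpr132 by 2.26 ± 0.29, Gpr4 by 2.16 ± 0.25, Gpr171 by 1.67 ± 0.21, Gpr31b by 1.65 ± 0.22 and Gpr33 by 1.55 ± 0.30. A second Adgrl3 probe set rose by 0.90 ± 0.22 here. Gpr160 fell by 2.76 (standard error 0.39, adjusted p = 0.000513) and Gpr22, a mostly cardiac and neural orphan, by 0.73 (standard error 0.20, adjusted p = 0.0497). The call of Gpr22 was lost in 13 of the alternatives run, among them limma with only the groups compared (adjusted p = 0.222). All 3 proton-sensing and G2A genes were called higher, Gpr65 at 1.43 ± 0.29, and 21 of 27 panel genes were not called, from -1.33 ± 0.43 for Gpr141 to 1.05 ± 0.34 for Gpr34. Of the 7 basophil, mast cell and eosinophil markers, 5 were called lower and none higher in CD24 DCs, with their mean at 4.14 to 4.56 there, against 5.73 to 6.64 in pre-CD8 cells. The calls of Adgrl3, P2ry14, Gpr141b, Gpr132, Gpr4, Gpr171, Gpr31b and Gpr160 held under each alternative. Without pre-CD8 array 1 the count was 8, with Gpr33, Gpr65, Adgrf5, Gpr17 and Gpr22 not called (adjusted p 0.0748 to 0.202).

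In CD172a DCs against pre-CD4 cells, 26 GPCR genes were called, 21 higher and 5 lower (26.3%), against 12.7% of all genes (4.7% higher and 8.02% lower). Adgrl3 rose by 4.55 ± 0.20 (adjusted p = 6.19e-08), with pre-CD4 values below the median gene, and its second probe set by 2.24 ± 0.24. Adgre1 rose by 3.76 ± 0.30, Adgre4 by 2.93 ± 0.36 and Gpr34 by 2.88 ± 0.37. Beside them, 2 of the 9 monocyte and macrophage markers were called higher, Spic (3.22) and Vcam1 (2.39), and 3 lower, Ly6c2 (-7.25), Ccr2 and Cd163, and their part was not tested. All 3 proton-sensing and G2A genes rose, Gpr132 by 2.78 ± 0.32, Gpr4 by 2.30 ± 0.27 and Gpr65 by 2.13 ± 0.31, and Gpr35 rose by 1.90 ± 0.31. Gpr18 (1.68 ± 0.29), P2ry10 (1.80 ± 0.35) and Gpr82 (1.83 ± 0.34) were higher too, while Gpr183 differed by 0.64 ± 0.23 without a call. The 5 lower genes were Gpr160 (-2.66 ± 0.42), P2ry12 (-1.63 ± 0.30), Gpr149 (-1.49 ± 0.36), Gpr108 (-0.92 ± 0.26) and Gpr146 (-0.77 ± 0.22). Adhesion GPCRs were called higher in 5 of 24 and lower in none, and 13 of 27 panel genes were not called.

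Under each alternative in which the gene was tested 14 of the 26 calls held, those of Adgrl3, Adgre1, Adgre4, Adgrg6, Gpr34, Gpr132, Gpr4, Gpr65, Gpr35, Gpr18, Gpr82, Gpr25, Gpr160 and P2ry12. Adgre4 was not tested with dim genes left out, and a second Gpr25 probe set was not called (0.56 ± 0.27, adjusted p = 0.2). Quantile normalization gave 22 calls, 17 higher and 5 lower, of which 19 were also called in the main fit. Gpr108, Gpr141b, Gpr146, Gpr161, Gpr17, Gpr55 and Gpr83 were then not called (limma, adjusted p 0.0502 to 0.115). The count was 15 without pre-CD4 array 1, where P2ry10 (adjusted p = 0.0713), Gpr149, Gpr108, Gpr146 and 8 others were not called (adjusted p up to 0.277), and 16 without CD172a DC array 2, where Gpr149, Gpr108, Gpr146 and 7 others were not (adjusted p up to 0.244).

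**Figure D5:**
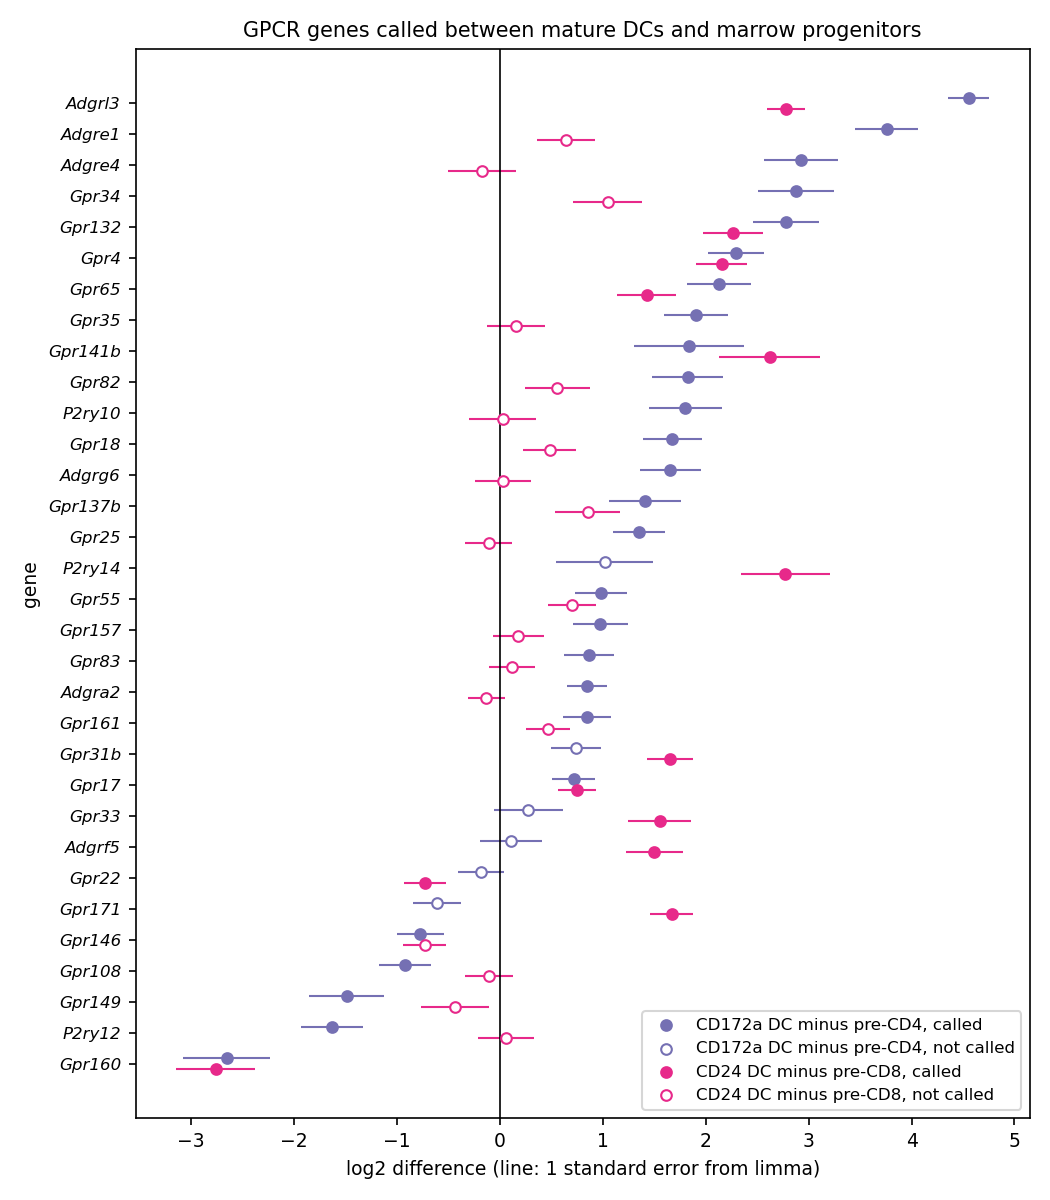
Log2 differences of the GPCR genes called between a mature population and the marrow progenitor of its lineage, with lines of 1 standard error from limma, filled where called. Adgrl3, Gpr132, Gpr4 and Gpr65 are called higher and Gpr160 lower in both lineages, Adgre1, Adgre4 and Gpr34 are called higher in CD172a DCs, and P2ry14, Gpr171 and Gpr33 in CD24 DCs.

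Whether the lineage difference itself changed between the stages was tested as the difference of CD24 DC minus CD172a DC and pre-CD8 minus pre-CD4. Of the 99 GPCR genes 4 were called, 1 higher and 3 lower (4.04%), against 1.03% of all genes (0.5% higher and 0.532% lower). They were Gpr171 (2.28 ± 0.31, adjusted p = 0.00288), Adgre1 (-3.11 ± 0.41, adjusted p = 0.00238), Adgre4 (-3.10 ± 0.49, adjusted p = 0.00762) and Adgrl3 (-1.77 ± 0.27, adjusted p = 0.0059). In all 4 the progenitors differed little, by -0.08 ± 0.23 for Gpr171, -0.64 ± 0.30 for Adgre1, -0.66 ± 0.36 for Adgre4 and 0.24 ± 0.20 for Adgrl3, none of them called. Gpr141b, with 4.81 in mature cells and 4.03 in progenitors, was not called in this test, 1 of 24 panel genes of 27 that were not.

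Beyond the receptors, 37 genes of G protein signalling were measured. In pre-CD8 cells against CDPs 6 of them were higher and none lower (16.2%, against 4.77% of all genes), with the largest differences in Rgs1 (2.93 ± 0.43), a GTPase-activating brake on G protein signals, the receptor kinase gene Grk5 (1.76 ± 0.27) and Rgs2 (1.53 ± 0.20). In pre-CD4 cells 6 were higher and none lower (16.2%, against 4.54%), with Rgs1 at 2.00 ± 0.43. In CD172a DCs against pre-CD4 cells 4 were higher, with Rgs1 at 3.97 ± 0.47, and 8 lower, with the G protein subunit genes Gna15 (-2.34 ± 0.36), Gng12 (-1.87 ± 0.21) and Gna11 (-1.37 ± 0.20) the largest (32.4% called, against 12.7%). In CD24 DCs against CD172a DCs 6 were higher and 2 lower (21.6%, against 5.59%). Against pre-CD8 cells 1 was higher and 2 lower, a share of 8.11% that is near the 6.31% of all genes. Of 15 measured genes that make or remove ligands, Cyp27a1, an oxysterol-producing enzyme, and the phospholipase gene Ddhd1 were higher in both progenitors than in CDPs (2.05 ± 0.34 and 1.25 ± 0.21 in pre-CD8 cells). Panx1, a channel that releases ATP, was lower in pre-CD8 cells than in CDPs (-0.85 ± 0.19) and in CD24 DCs than in CD172a DCs (-1.15 ± 0.19), where Cyp27a1 was higher (1.26 ± 0.34). Entpd1, which encodes the nucleotide-degrading enzyme CD39, was higher in both mature populations than in their progenitors (1.22 ± 0.24 in CD24 DCs and 1.46 ± 0.26 in CD172a DCs), as was Ddhd1 in CD172a DCs (1.54 ± 0.23). Of the 15 genes, 3 were called in pre-CD8 cells against CDPs (20%, against 4.77% of all genes) and 2 in pre-CD4 cells (13.3%, against 4.54%). In CD24 DCs against CD172a DCs 2 were called (13.3%, against 5.59%). The calls against the progenitors were near the shares of all genes. They were 1 in CD24 DCs (6.67%, against 6.31%) and 2 in CD172a DCs (13.3%, against 12.7%).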

How the data were processed

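The authors deposited processed log2 values for 35145 probe sets on each of 12 arrays. How they corrected background, summarized probes and normalized is not given in the sources used here, nor is the log base, which was read as log2 from the range of the values. Per the labels' protocols, RNA was amplified with a NuGEN Ovation Pico kit and labelled with biotin. Array means lay between 5.28 and 5.34, medians between 4.89 and 5.24 and interquartile ranges between 2.10 and 2.86, and no further normalization was applied. Symbols came from the platform annotation: 23521 probe sets had exactly 1 symbol, 1814 several and 9810 none listed. Of the GPCR genes, 105 probe sets had 1 symbol, 5 genes had several such probe sets, and Adgre5, Gpr137, Gpr21, Gpr3, Gpr39 and Gpr89, listed only with other symbols, were not analysed here.

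One limma fit (3.58.1, R 4.3.3) with a mean per population used all 12 arrays (residual degrees of freedom 7, prior 6.19). P-values are two-sided. Named genes are, per comparison, up to 8 called genes in each direction by size, a panel of 27 measured genes (P2ry1, P2ry2, P2ry6, P2ry10, P2ry12, P2ry13, P2ry14, Gpr18, Gpr34, Gpr35, Gpr55, Gpr65, Gpr82, Gpr84, Gpr132, Gpr141, Gpr141b, Gpr146, Gpr160, Gpr171, Gpr174, Gpr183, Adgre1, Adgre4, Adgrg1, Adgrg3 and Adgrl4), genes called for the stage by lineage difference, and the 6 brightest; other members were named after their values were seen. The members and lists were chosen with earlier results of these data known. The number of arrays limits precision: the median standard error of a difference was 0.24 (3 arrays against 2) or 0.27 (2 against 2). The fit was tested on simulated data.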

Additional observations from a re-analysis of the deposited data

Results flagged for a closer look

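For 4 GPCR genes the difference between the lineages was not the same at the mature and the progenitor stage, by the test of that difference in limma, adjusted over all genes. Gpr171 had a value of 2.28 ± 0.31 (adjusted p = 0.00288), with all 3 CD24 DC arrays above both CD172a DC arrays and the progenitor arrays overlapping. The other 3 were negative, that is, more toward CD172a DCs at the mature stage. Adgre1 had -3.11 ± 0.41 (adjusted p = 0.00238), Adgre4 -3.10 ± 0.49 (adjusted p = 0.00762) and Adgrl3 -1.77 ± 0.27 (adjusted p = 0.0059). A second probe set of Gpr171 gave 2.43 ± 0.24 in CD24 DCs against CD172a DCs, beside 2.20 ± 0.21 for the one used, and a second probe set of Adgrl3 gave -1.18 ± 0.22 beside -1.54 ± 0.18 in the same comparison.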

How the results depend on the processing

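No direction of a called difference reversed under any alternative run. Quantile normalization, the array number as a replicate block, leaving out dim genes, the mean over probe sets, an intensity trend, a fit of only the groups compared, and each array left out in turn were tried, and, added after seeing the data, every probe set on its own. The count of called GPCR genes moved by more than 1.5 times in 2 of the settings that keep all arrays of a comparison: the fit of only the groups compared gave 0 in pre-CD8 against pre-CD4 cells, and quantile normalization gave 8 instead of 4 for the stage by lineage difference (1 higher and 7 lower), adding Gpr183, Gpr35, Gpr25 and Adgrg6. In pre-CD8 against pre-CD4 cells 18 GPCR genes had an unadjusted limma p under 0.05 in the main fit. With only the groups compared 20 had, and the share over all genes was not counted. The cause of either change was not tested. Leaving out dim genes left 59 of the 99 GPCR genes to test. With 1 array left out, where a lone array is assumed to vary like the other groups, counts ran from 11 to 21 in pre-CD8 against CDP, 8 to 14 in pre-CD4 against CDP, 1 to 6 in pre-CD8 against pre-CD4, 9 to 17 in CD24 DC against CD172a DC, 8 to 18 in CD24 DC against pre-CD8 and 15 to 29 in CD172a DC against pre-CD4. They ran from 4 to 6 for the stage by lineage difference, from 38 to 47 for variation over the populations and from 65 to 80 for the 80 named differences. The labels do not say what an array number marks. Deviations of same-numbered arrays correlated at r = 0.102 to 0.421 over 13 pairs without CD172a DC. Over 8 pairs with it they correlated at r = -0.163 to 0.024. Not every pair was thus over 0.1, and the numbers were not read as pairing arrays. In a group of 2 arrays the deviations are equal and opposite, so several pairs repeat a value. Medians and interquartile ranges of whole arrays also differed within groups. The correlations therefore cannot show whether the numbers mark pairs. With the replicate block the counts in the order above were 19, 12, 6, 15, 13 and 29, and Gpr183 in pre-CD8 against CDP (adjusted p = 0.055), Gpr82 in CD24 DC against CD172a DC (0.065) and Gpr17 and Gpr22 in CD24 DC against pre-CD8 (0.0522 and 0.099) were not called. Among the calls it added were those of P2ry13 (0.0412) and Gpr65 (0.0448) in pre-CD8 against pre-CD4 and of Gpr34 (0.0414) in CD24 DC against pre-CD8. Of its 13 calls in CD24 DC against pre-CD8, 11 were also called in the main fit, and of its 29 in CD172a DC against pre-CD4, 26 were. Low signal over background cannot be separated from absence here, as no detection calls were used.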

Other observations

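Probe sets of Gpr155, which encodes a lysosomal cholesterol sensor, disagreed. The brightest one, used above, was not called in any of the 6 comparisons between populations, with 0.24 ± 0.24 in pre-CD8 and 0.62 ± 0.24 in pre-CD4 cells against CDPs. Another rose by 2.27 ± 0.26 in pre-CD8 (adjusted p = 0.000167) and by 2.31 ± 0.26 in pre-CD4 cells (adjusted p = 0.000223), at means of 6.11 and 6.15 against 3.84 in CDPs. The same probe set fell by 1.47 (standard error 0.26, adjusted p = 0.00308) in CD24 DCs against pre-CD8 cells. The remaining one rose by 1.28 ± 0.21 in pre-CD4 cells against CDPs (adjusted p = 0.00338) and was not called in pre-CD8 cells (0.66 ± 0.21). Gpr25, called lower in CD24 DCs than in CD172a DCs at -1.25 ± 0.23, had a second probe set at -0.26 ± 0.24 that was not called. All these p-values are from limma with every probe set fitted on its own. These genes were chosen after their values were seen.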
